A study of Homo sapiens with 12 samples.

Results

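Dynein and dynactin genes were taken from a table of 22564 genes measured in A549, a cell line established from a human lung carcinoma. The genes were chosen by symbol: DNAH, DNAI, DNAL and DNALI names for the dyneins of the axoneme, DYNC, DYNL and DCTN names for the cytoplasmic dyneins, their light chains and dynactin, and DNHD1. This gave 34 genes, all with 1 row each. Of these 32 were protein-coding, namely 14 axonemal chains, 17 cytoplasmic and dynactin chains, and DNHD1, which has a dynein heavy chain domain but belongs to neither class by name. The other 2 were DNAH10OS, a long non-coding RNA on the strand opposite to DNAH10, and DYNC1I2P1, a processed pseudogene of DYNC1I2. They were taken in by their names and are given apart from the chains.

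Total RNA was sequenced after transfection with 40 nM of siRNA against YTHDC1 (siYTHDC1, 6 libraries) or with a scrambled control siRNA (siSCR, 6 libraries) for 48 to 72 h. YTHDC1 is the nuclear protein that binds N6-methyladenosine (m6A) in RNA, and the study used its silencing to ask which transcripts depend on it. The labels do not say whether the libraries of a group came from separate cultures. The table held, for each gene, the authors' mean normalised count over all 12 libraries, and beside it the columns of the authors' own comparison of siYTHDC1 with siSCR, which were not used. The values below are therefore levels in siYTHDC1 and siSCR cells together. They carry no error between libraries, the reads obtained per library cannot be read from the table, and they say nothing on a difference between siYTHDC1 and siSCR, the target YTHDC1 included (mean normalised count 232 over both groups). Differences between genes could be set against no replicate spread, so no test was made and neighbours in the order of levels cannot be told apart.

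Dyneins are motor proteins that walk towards the minus end of microtubules, using ATP split by the motor domain of their heavy chains. Cytoplasmic dynein 1 carries organelles, vesicles and the spindle machinery in nearly every cell and works together with dynactin, whereas cytoplasmic dynein 2 returns cargo along the cilium in intraflagellar transport. Axonemal dyneins form the arms that slide the microtubule doublets of motile cilia and flagella, and in the airway they drive the cilia of multiciliated cells.

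To compare genes of different size, the level of a gene was its mean normalised count divided by the kilobases (kb) of its merged exons. The exons came from the GENCODE annotation of GRCh37, the build on which the authors counted, in a later release than theirs. Exons added since their release lengthen a gene here, though the authors' counts hold no reads for them. Merged exons were 1.94 times as long as the longest transcript in DYNC1H1 and 1.04 times in DNAH1. The part of the release in the levels was not tested. A length was found for 21798 genes (96.6%) and for all 34 dynein and dynactin genes. Over all genes the median level was 32.2 per kb (quartiles 6.94 and 100.7), and over protein-coding genes it was 58.6 per kb. A549 cells had the keratins of simple epithelium, with KRT18 at 4858 and KRT8 at 4011 per kb, while the adhesion genes CDH1 and EPCAM lay at 166 and 24.04 per kb. Of 8 markers of multiciliated cells, 6 had a row. Their median level was 3.71 per kb, CCDC78 and MCIDAS were highest at 37.1 and 20.6 per kb, and FOXJ1, the master factor of motile cilia, and PIFO were lowest at 1.71 and 1.52 per kb. TEKT1 and SNTN, which mark the motile cilium itself, had no row. Markers of blood, endothelial and nerve cells had a row for 4 of 6. RBFOX3 and SNAP25 lay at 22.4 and 12.95 per kb, MAP2 and CDH5 at 3.69 and 1.20 per kb, and PTPRC and PECAM1 had no row.

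Axonemal chains lay far below cytoplasmic chains in level. Libraries of bulk RNA cannot tell a low level in every cell from a higher level in few cells. The 14 axonemal chains had a median level of 2.13 per kb (quartiles 1.11 and 13.4), against 128.7 per kb (quartiles 96.4 and 153.8) for the 17 cytoplasmic and dynactin chains. These values cover only genes with a row, and the lowest mean normalised count of any gene with a row was 1.52. Of the chains looked up by name, 4 of 18 axonemal and 2 of 19 cytoplasmic ones had no row. With DNAH10OS and DYNC1I2P1 kept in their classes the medians were 2.61 per kb over 15 axonemal names and 118.5 per kb over 18 cytoplasmic names, a ratio of 0.0220, and without them the ratio was 0.0165. Of the axonemal chains 2 of 14 stood above the median of all genes, DNAL1 and DNAH14, whereas 17 of 17 cytoplasmic chains did. Over all protein-coding genes, 8835 of 14100 did. Both axonemal genes were under the median of protein-coding genes, and so was the cytoplasmic chain DYNC2LI1. The classes touched at a single point, where DNAL1 at 44.99 per kb and DYNC2LI1 at 44.83 per kb had a ratio of 1.00 (0.666 with the longest transcript as the length). All other axonemal chains, 13 of 14, were below every cytoplasmic chain, and with the longest transcript as the length 14 of 14 were. DNHD1 stood between the classes, at 57.3 per kb, with 0 of 14 axonemal chains above it and 16 of 17 cytoplasmic chains above it.

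**Figure D1:**
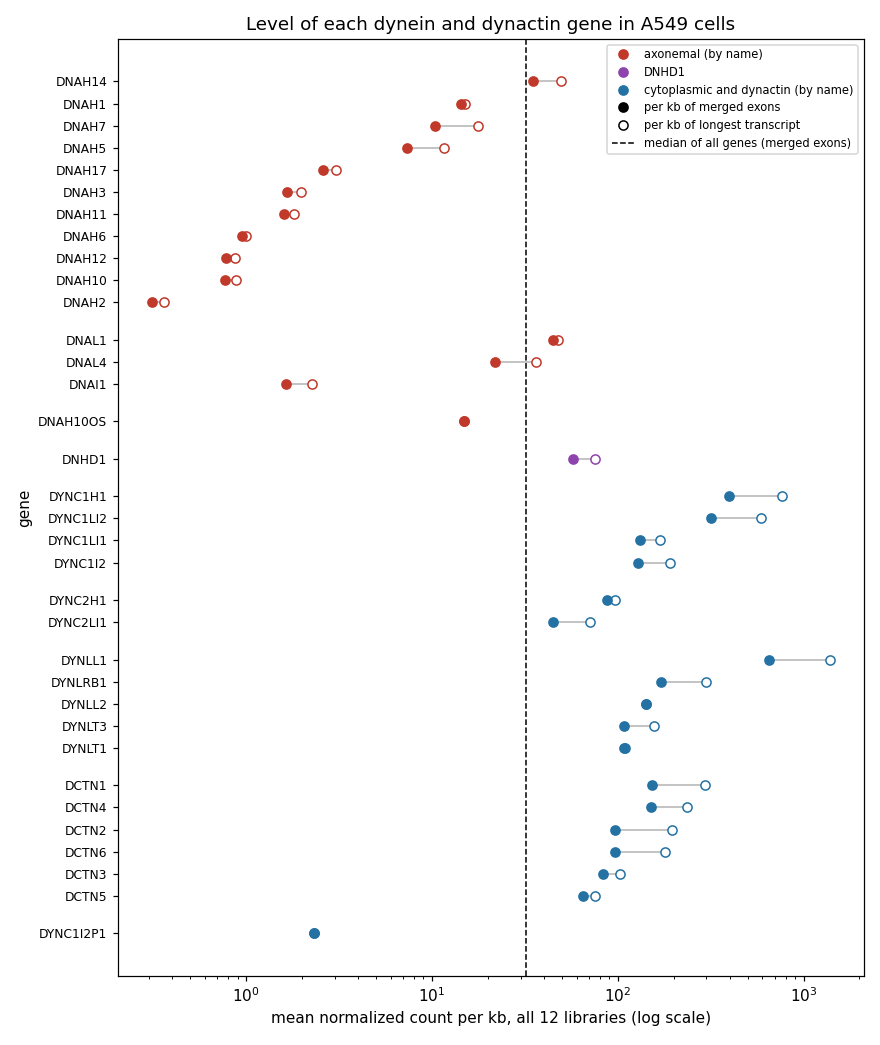
Level of each dynein and dynactin gene on a log scale, as the authors' mean normalised count over 12 libraries per kb, with axonemal genes in red, DNHD1 in purple and cytoplasmic and dynactin genes in blue. Filled points use merged exons and open points the longest transcript, and the dashed line is the median of all genes at 32.2 per kb. The filled red points reach 45.0 per kb at most and the open ones 49.3 per kb, and the filled blue points start at 44.8 per kb and the open ones at 71.3 per kb, apart from the pseudogene DYNC1I2P1 at 2.33 per kb.

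Promoter sequences were set beside the levels because genes of cilia often carry an X-box, the site bound by the RFX transcription factors. RefSeq promoters of GRCh38.p14, a newer build than that of the counts, run from 250 bases before to 50 bases after the start of the gene. They were matched by symbol for 29 of the 34 genes. DCTN6, DNAH17, DNAH3, DYNC1I2P1 and DYNLL2 had no entry. A 7-base X-box core, GTTGCCA or its reverse complement TGGCAAC, was found in 7 of 29 promoters (24.1%), against 4.13% of all 27305 promoters and 3.81% of the 11062 promoters whose genes were in the table. The 7 genes were DYNC2H1 and DYNC2LI1, the heavy and light intermediate chains of dynein 2, the axonemal DNAH1, DNAH2, DNAH10 and DNAH12, and the dynactin gene DCTN3. The genes of dynein 1 with an entry, DYNC1H1, DYNC1I2, DYNC1LI1 and DYNC1LI2, had no such match. Nor did most axonemal chains, namely DNAH5, DNAH6, DNAH7, DNAH11, DNAH14, DNAI1, DNAL1 and DNAL4. By class, a core was present in 4 of 12 axonemal chains (33.3%) and 3 of 15 cytoplasmic chains (20%). DNAH1 held 3 cores. A pair of them, side by side, makes up a whole X-box, the palindrome GTTNCCNNGGNAAC, which 0.458% of all promoters contain. DNHD1 had no core and 1 TATAAA word, 239 bases before its start, a word found on either strand in 3 of the 29 promoters (also in DYNC1I2 and DNAH5), in 11.95% of all promoters and in 6.02% of those whose genes were in the table. The X-box cores, and in DNHD1 the word TATAAA, are in capitals in the following sequences, shown because they hold the matches. The 3 whole promoters with a core and that of DNHD1 come first, then 41 bases around the core of the other 4 genes, all 5′ to 3′ on the strand of the gene.
DYNC2H1 (chr11:103109176-103109475, plus strand): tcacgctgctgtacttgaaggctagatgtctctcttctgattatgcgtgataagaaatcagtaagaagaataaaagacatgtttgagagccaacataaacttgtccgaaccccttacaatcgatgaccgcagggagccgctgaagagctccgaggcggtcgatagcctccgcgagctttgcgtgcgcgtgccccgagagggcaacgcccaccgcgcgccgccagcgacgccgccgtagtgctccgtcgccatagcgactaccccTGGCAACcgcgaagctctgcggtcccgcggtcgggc
DYNC2LI1 (chr2:43773789-43774088, plus strand): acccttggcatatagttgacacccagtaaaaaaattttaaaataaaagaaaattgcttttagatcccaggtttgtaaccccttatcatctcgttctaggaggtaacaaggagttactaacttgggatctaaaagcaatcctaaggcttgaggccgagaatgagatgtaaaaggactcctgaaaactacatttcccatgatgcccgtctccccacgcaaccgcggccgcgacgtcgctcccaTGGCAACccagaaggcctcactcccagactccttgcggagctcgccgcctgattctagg
DNAH1 (chr3:52316069-52316368, plus strand): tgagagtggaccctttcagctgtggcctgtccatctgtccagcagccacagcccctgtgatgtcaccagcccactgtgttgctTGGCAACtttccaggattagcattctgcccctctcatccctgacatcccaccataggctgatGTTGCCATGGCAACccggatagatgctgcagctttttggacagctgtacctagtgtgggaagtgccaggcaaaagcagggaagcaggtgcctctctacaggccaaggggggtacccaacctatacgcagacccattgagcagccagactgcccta
DNHD1 (chr11:6497030-6497329, plus strand): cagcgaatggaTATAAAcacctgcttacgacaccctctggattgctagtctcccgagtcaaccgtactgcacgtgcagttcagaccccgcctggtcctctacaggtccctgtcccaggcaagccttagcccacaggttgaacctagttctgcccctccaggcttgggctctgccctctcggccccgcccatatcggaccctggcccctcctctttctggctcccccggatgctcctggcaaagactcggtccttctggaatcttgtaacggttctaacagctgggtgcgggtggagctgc
DNAH12 (chr3:57544418-57544458, minus strand): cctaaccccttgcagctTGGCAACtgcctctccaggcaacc
DNAH10 (chr12:123762268-123762308, plus strand): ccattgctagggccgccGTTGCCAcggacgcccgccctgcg
DNAH2 (chr17:7717709-7717749, plus strand): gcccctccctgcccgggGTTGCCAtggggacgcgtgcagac
DCTN3 (chr9:34620621-34620661, minus strand): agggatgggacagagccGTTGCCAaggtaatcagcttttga

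The core began at base 15 of the transcript in DYNC2H1, with the start as base 1, and 9 bases before the start in DYNC2LI1. In DNAH10 and DNAH2 it began 16 and 18 bases before the start, and in DNAH12, DCTN3 and DNAH1 the first core lay 97, 149 and 167 bases before it. A core went with no single level: the 7 genes ran from 0.31 per kb for DNAH2 to 87.8 per kb for DYNC2H1. CpG dinucleotides numbered 20 in the median axonemal promoter (12 chains, 2 to 46) and 26 in the median cytoplasmic promoter (15 chains, 13 to 44), against 14 over all promoters and 25 over those of genes in the table. DYNC1H1, DYNLL1 and DYNC1LI2, the 3 highest levels, had 44, 43 and 42 CpGs. DNAH10 had the most, 46, at 0.77 per kb, while DNAH1 and DNAH5 had 2 each at 14.4 and 7.34 per kb. The word CCAAT was present in 10 of 29 promoters (34.5%), near its share of 35.7% over all promoters. A match is a run of letters and was not tested for binding.

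**Figure D2:**
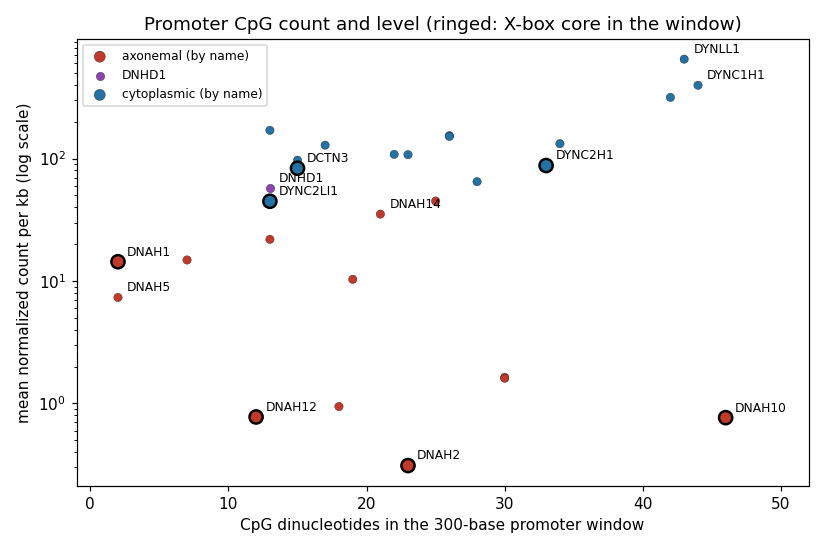
Number of CpG dinucleotides in the 300-base RefSeq promoter (x axis) against the level in mean normalised counts per kb (y axis, log scale) for 29 dynein and dynactin genes, axonemal in red, DNHD1 in purple and cytoplasmic in blue. Larger ringed points hold the X-box core, and the 7 of them spread from DNAH2 at 0.31 to DYNC2H1 at 87.8 per kb.

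Heavy chains carry the motor and are encoded by very long genes, with a coding length of 9.30 to 13.9 kb in the axonemal genes, 14.02 kb in DYNC1H1, 12.9 kb in DYNC2H1 and 14.3 kb in DNHD1. Among the 14 heavy chain genes, DNHD1 included, DYNC1H1 was first at 397 per kb, DYNC2H1 the second at 87.8 per kb, DNHD1 the third at 57.3 per kb and DNAH14 the fourth at 35.2 per kb. DYNC1H1 held 64.2% of the summed level of these genes, DYNC2H1 14.2%, DNHD1 9.28%, and the 11 axonemal heavy chains together 12.3%. The axonemal heavy chains had a median of 1.65 per kb, and 7 of 11 were under 3 per kb with mean normalised counts under 50. The median count of all genes in the table was 65.8.

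DNHD1 (ENSG00000179532.8, chr11:6518490-6614988, plus strand, GRCh37, 43 exons in its longest transcript) had a mean normalised count of 1125. In human its product is linked to the sperm flagellum. Its level was at percentile 62.0 of all genes and at percentile 49.4 of protein-coding genes, and it ranked 17 of the 34 genes. It was 0.144 times that of DYNC1H1, 0.653 times that of DYNC2H1, 1.63 times that of DNAH14 and 184 times that of DNAH2. Per kb of the longest transcript it was 75.7, with the corresponding ratios at 0.0984, 0.787, 1.54 and 210. DNHD1 stood nearer to DYNC2H1 and DNAH14 than to either end of the heavy chains under both lengths. An unnamed gene on the same strand, which had no row, overlapped 2.40% of its exons, 472 bases.

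DNAH14 (ENSG00000185842.10, chr1:225083964-225586994, plus strand) was the axonemal heavy chain with the highest level. Its mean normalised count was 693, its level lay at percentile 51.6 of all genes, and it alone held 46.4% of the summed level of the 11 axonemal heavy chains. It was 0.401 times the level of DYNC2H1 and 2.45 times that of DNAH1, the next axonemal heavy chain per kb of merged exons. Per kb of the longest transcript, and by count, DNAH7 came next instead. DNAH1, an inner arm heavy chain known for its need in sperm flagella, lay at 14.4 per kb with a count of 199. DNAH7, of the inner arms, and DNAH5, the outer arm heavy chain most often mutated in primary ciliary dyskinesia, lay at 10.3 and 7.34 per kb, with counts of 220 and 182. These 4 genes were the axonemal heavy chains with a count above 100.

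The other 7 axonemal heavy chains formed a low group. The outer arm heavy chain DNAH17 lay at 2.61 per kb with a count of 42.0, and DNAH11, also of the outer arms, at 1.61 per kb with a count of 26.0. The inner arm chains DNAH3, DNAH6, DNAH12, DNAH10 and DNAH2 lay at 1.65, 0.94, 0.78, 0.77 and 0.31 per kb, with counts of 24.8, 12.8, 8.29, 12.4 and 5.24. DNAH2 was the lowest of all 34 genes, at percentile 0.920. By count alone these genes were less extreme, from percentile 19.2 of all genes for DNAH2 to 45.7 for DNAH17. DNAH8 and DNAH9, the heavy chains of the outer arms in sperm and airway cilia, had no row and are not analysed here.

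**Figure D3:**
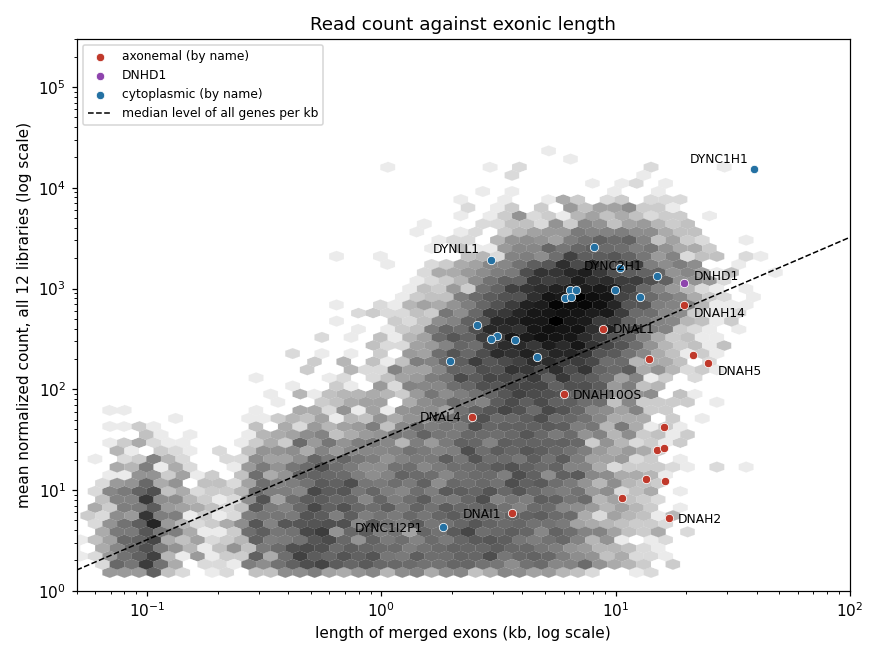
Mean normalised count over 12 libraries (y axis, log scale) against the length of merged exons (x axis in kb, log scale), with all genes as grey hexagons and the dynein and dynactin genes as points, axonemal in red, DNHD1 in purple and cytoplasmic in blue. The dashed line marks the median level of 32.2 per kb, and among the heavy chains DYNC1H1, DYNC2H1, DNHD1 and DNAH14 lie above it while 10 axonemal heavy chains lie below it.

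The intermediate and light chains of axonemal dynein ranged from near the top of the class to nearly the median of its heavy chains. DNAL1, an outer arm light chain, had the highest level of the class per kb of merged exons, 45.0 (count 399.7, chr14:74111578-74170435, plus strand). Per kb of the longest transcript DNAH14 was above it, at 49.3 against 47.5. DNAL4, another light chain, lay at 21.9 per kb with a count of 53.2, and the outer arm intermediate chain DNAI1 at 1.63 per kb with a count of 5.90. DNAL1, DNAH14 and DNAL4 together held 70.7% of the summed level of the 14 axonemal chains, and the axonemal chains held 4.61% of the summed level of all 32 chains. The partner of DNAI1 in the outer arm, DNAI2, and the inner arm light chain DNALI1 had no row and are not analysed here. Under their older symbols, the intermediate chains WDR78 and WDR63 of the inner arms had rows with levels of 5.29 and 3.23 per kb.

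The 4 genes of cytoplasmic dynein 1 had a median level of 224 per kb, the highest among the classes of dynein and dynactin names. DYNC1H1 (ENSG00000197102.6, chr14:102430910-102522780, plus strand), its heavy chain, had a mean normalised count of 15432, which was 46.8% of the counts of all 32 chains, and a level of 397 per kb at percentile 95.6. DYNC1LI2 and DYNC1LI1, the light intermediate chains that hold cargo adaptors, lay at 316 and 132 per kb with counts of 2557 and 809. The level of DYNC1LI2 was 2.39 times that of DYNC1LI1, 70.5% of their sum. DYNC1I2, an intermediate chain that binds dynactin, lay at 128.7 per kb with a count of 828, and DYNC1I1, the intermediate chain better known from neurons, had no row. DYNC1H1 was 3.08 times DYNC1I2 and 2.998 times DYNC1LI1 in level, and 4.04 and 4.55 times with the longest transcript as the length.

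Cytoplasmic dynein 2 lay lower. DYNC2H1 (chr11:102980139-103350591, plus strand), the heavy chain of retrograde intraflagellar transport, had a count of 1318 and a level of 87.8 per kb, and DYNC1H1 was 4.52 times as high per kb of merged exons and 7.999 times as high per kb of the longest transcript. Its light intermediate chain DYNC2LI1 (chr2:44001178-44037149, plus strand) had a count of 207 and 44.8 per kb, the lowest of the 17 cytoplasmic chains. The dynein 2 intermediate chains, listed under their older symbols WDR34 and WDR60, lay at 435 and 68.8 per kb, and the dynein 2 light chain TCTEX1D2 at 20.9 per kb. WDR34 was above DYNC1H1 per kb of merged exons but below it per kb of the longest transcript (638 against 769 per kb), while the other 4 dynein 2 genes were between 20.9 and 87.8 per kb of merged exons. The whole list of dynein subunits under other symbols had rows for 6 of 8, a median of 13.1 per kb and 2 genes above the median of all genes, and TCTEX1D4 and WDR63 were its lowest at 3.59 and 3.23 per kb.

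The light chains, small proteins that sit on the intermediate chains of more than a single kind of dynein, had coding lengths of 0.267 to 0.456 kb and a median level of 141.6 per kb over 5 genes. DYNLL1 (chr12:120907653-120936296, plus strand), which also binds many proteins outside dynein, was highest of all 34 genes at 649 per kb, with a count of 1901. It held 55.1% of the summed level of the 5 light chains and was 4.58 times its close relative DYNLL2, which lay at 141.6 per kb with a count of 964. Per kb of the longest transcript, which is less than the merged exons in DYNLL1 and equal to them in DYNLL2, this ratio was 9.76. DYNLRB1, of the roadblock type, lay at 170 per kb with a count of 434. The Tctex-type DYNLT3 and DYNLT1 lay at 108.3 and 107.7 per kb, with counts of 338 and 318 and a ratio of 1.01. DYNLRB2, the second roadblock gene, had no row. The annotation lists 7 pseudogenes of DYNLL1 and 2 of DYNLT3, so reads of these genes may have been shared with or lost to near-identical copies.

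The 6 dynactin genes lay closer together, between 64.8 and 153.8 per kb, with a median of 96.7. Dynactin is the activator that links dynein 1 to its cargo. DCTN1, its large arm that grips the microtubule, lay at 153.8 per kb with a count of 1605, and DCTN4, of the pointed end of its filament, at 151.7 per kb with a count of 971. DCTN2, the dynamitin subunit of the shoulder, lay at 97.0 per kb with a count of 970. DCTN6 of the pointed end, DCTN3 of the shoulder and DCTN5 of the pointed end followed at 96.4, 83.4 and 64.8 per kb, with counts of 189, 312 and 822. DCTN1 was 2.37 times DCTN5, the widest gap among them, and 3.95 times DCTN5 with the longest transcript as the length. DCTN5 shared 26.1% of its exonic length with another gene on the same strand, and the part of this overlap in its level was not tested. Dynactin subunits under other symbols had a row for 7 of 7, with a median of 216 per kb. ACTB, the actin gene used across the cell, and CAPZA1, a capping protein, were highest at 10460 and 702 per kb, and ACTR10 and CAPZB were lowest at 111.6 and 87.6 per kb of merged exons. Per kb of the longest transcript ACTR1B was lowest, at 165.

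Genes that work with each kind of dynein were then described as lists, with the highest and lowest genes taken per kb of merged exons. Counts above the median of all genes stand beside 8835 of 14100 for all protein-coding genes. Of 14 regulators and cargo adaptors of cytoplasmic dynein, 14 had a row and 12 stood above the median of all genes. Their median level was 89.0 per kb, from PAFAH1B1, the LIS1 gene, at 247 and SPDL1 at 233 to HOOK2 at 22.4 and HOOK1 at 8.78. Intraflagellar transport genes had rows for 19 of 20 and a median of 39.4 per kb, with 11 above the median of all genes. IFT52 and WDR35 were highest at 128.2 and 127.1 per kb and IFT172 and TTC21B lowest at 23.7 and 12.5 per kb. The order within lists depends on the length used: per kb of the longest transcript SPDL1 (439) was above PAFAH1B1 (421), and IFT81 (272) and HSPB11 (208) were above IFT52 (186).

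The lists of motile cilia were lower. Factors that assemble axonemal dynein in the cytoplasm had rows for 9 of 11 and a median of 10.7 per kb, and 3 of them stood above the median of all genes. HEATR2 and DNAAF2 were highest at 211 and 76.6 per kb of merged exons (SPAG1, at 93.8, was above DNAAF2 per kb of the longest transcript), and ZMYND10 and DNAAF1 lowest at 3.01 and 0.57 per kb. Genes that dock the arms or form the nexin link had rows for 8 of 10 symbols and a median of 3.21 per kb, with 1 above the median of all genes, GAS8 at 84.3 per kb. CCDC40 followed at 19.2 per kb, and DRC1 and CCDC39 were lowest at 1.59 and 0.53 per kb. The list of cilium transcription factors held FOXJ1, MCIDAS, GMNC and the RFX family, without regard to which RFX members act on cilium genes. It had rows for 7 of 11, with a median of 25.5 per kb. RFX5 and RFX7 were highest at 163 and 156 per kb, RFX2 lay at 17.7 per kb and FOXJ1 was lowest at 1.71 per kb. The medians of these lists were set beside that of all genes, 32.2 per kb, with no test.

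**Figure D4:**
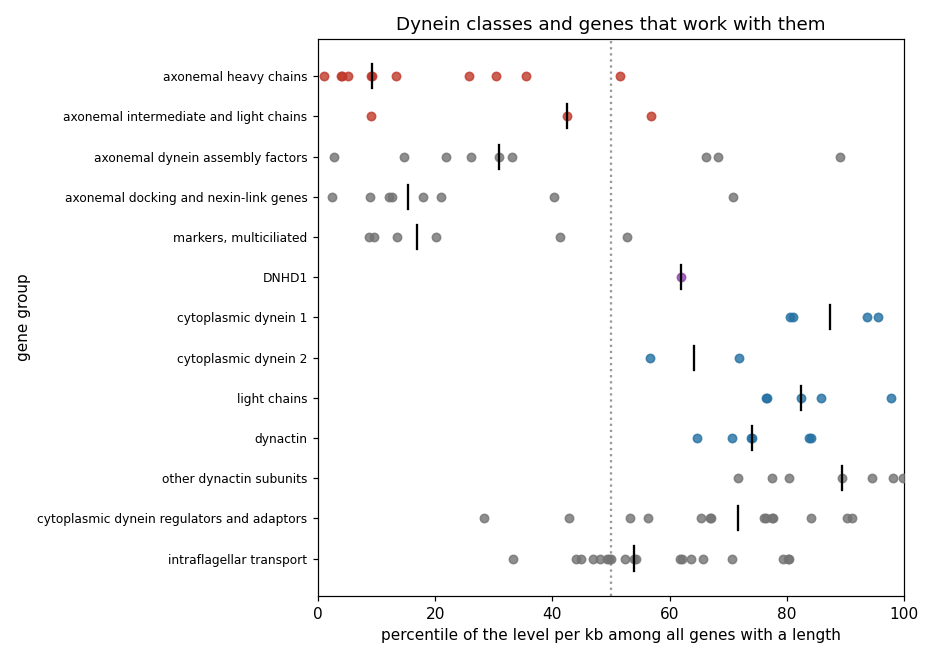
Percentile of each gene's level per kb among all 21798 genes with a length (x axis), for the dynein and dynactin classes and the lists of genes that work with them (rows), with the median of each group as a black bar. Axonemal heavy chains have their median at percentile 9.18 and dynein 1 at percentile 87.4, DNHD1 stands at 62.0, and regulators of cytoplasmic dynein (71.6) and intraflagellar transport (53.9) lie right of axonemal assembly (30.9) and docking genes (15.3).

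Exons shared with other genes bear on some of these values. Exons of 13 of the 34 genes overlapped exons of a gene on the opposite strand, in 5 of them over more than 10 percent of their exonic length. The libraries were stranded, but whether the authors counted by strand is not given in the sources used here. DNAH10OS (chr12:124410008-124419531, minus strand) had a level of 14.9 per kb and a count of 89.2, 19.4 times the level of DNAH10 (chr12:124246735-124420267, plus strand), and the exons of these genes overlap by 1800 bases. DNAH17 shared 1931 bases, 11.99% of its exonic length, with an opposite-strand RNA at a count of 40.0, close to the count of 42.0 for DNAH17 itself. DNAH11 shared 833 bases with CDCA7L, which had a count of 455 against 26.0 for DNAH11, and DYNC1LI2 shared 1790 bases with an RNA at a count of 2.13. DNAH10 also shared 485 bases with CCDC92, at a count of 351 against 12.4 for DNAH10, and DNAH17 93 bases with PGS1, at a count of 542. With either strand counted, exons of 17 of the 34 genes overlapped exons of another gene. On the same strand, DCTN5 shared 3315 bases (26.1% of its exonic length) with a gene at a count of 98.6. DNAL4 shared 76 bases (3.13%) with SUN2, at a count of 688 against 53.2 for DNAL4. DYNLRB1 shared 666 bases (26.1%) with an unnamed gene that had no row, and DCTN6 254 bases (13.0%) with LEPROTL1, at a count of 784. The part of these overlaps in the levels was not tested. DYNC1I2P1 lay at 2.33 per kb with a count of 4.28, and its parent DYNC1I2 was 55.3 times as high.

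Because YTHDC1 binds m6A, the word GGACT, the most frequent form of the motif that is methylated, was counted in the longest annotated transcript of each gene and divided by its length. The median was 1.06 words per kb in axonemal chains and 0.812 per kb in cytoplasmic chains, against 0.845 over all genes and 0.931 over protein-coding genes. DNHD1 had 10 such words, 0.672 per kb. DNAH10OS with 12 words (2.00 per kb) and DNAH1 with 26 (1.95 per kb) were highest, while DNAL4, DCTN6 and DYNC1I2P1 had none. DYNC1H1 had 20 words, 0.997 per kb, and DYNC2H1 had 15, 1.09 per kb. The word count is a property of the sequence, and methylation was not measured in these libraries.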

How the data were processed

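Total RNA of A549 cells was sequenced in 12 libraries (6 siYTHDC1, 6 siSCR, grouped by the sample labels). Per the study's methods, the authors used STAR for alignment to hg19, HTSeq for counts per gene on a GENCODE annotation, and DESeq2 for the comparison, where their model held a term for batch. The batch of each library is not in the labels. The methods give a planned number of reads per sample, and the number obtained cannot be read from the table.

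The file used lists the outcome of that comparison, 1 gene per row. Its signal column, the mean normalised count over all libraries, is as deposited by the authors and is printed as their mean. Its 5 other value columns hold the authors' own comparison (log2 fold change, its standard error, test statistic, p-value and adjusted p-value). They were not used, so no test between siYTHDC1 and siSCR was made and no count model was run. Columns of values per library were 0 in number.

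Gene IDs without version were matched to GENCODE release 44 mapped to GRCh37 for positions, types, exons and lengths, a later release than the annotation behind the counts. The level was the mean normalised count per kb of merged exons, with no pseudocount and no filter. For a symbol with several rows the row with the highest mean would be used, and 0 of these symbols had several. Every gene that matched the name patterns was named, and of other lists the highest and lowest pair. WDR78, TCTEX1D2, IFT81, HSPB11, ACTR1B and SPAG1, outside this rule, were added after their values were seen. The members and lists were chosen with earlier results of these data known. Alternatives were the longest transcript as length, no division by length, summed rows, minimum counts of 10 and 100, classes without the pseudogene and opposite-strand RNA, without light chains or without dynactin, and protein-coding genes as background. The steps for level, percentile, summed rows and minimum count were tested on simulated data. Promoters came from RefSeq (GRCh38.p14), and motifs were sought on both strands. Python 3.11.15, numpy 2.4.6, pandas 2.3.3 and matplotlib 3.10.9 were used.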

Additional observations from a re-analysis of the deposited data

How the results depend on the processing

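The 7 summary values (the medians of both classes, their ratio, the counts of genes above the median of all genes, and the level of DNHD1) were recomputed under 9 alternatives. Of these 63 values, 48 stayed within 1.5 times and 15 moved further, and the ratio of the axonemal to the cytoplasmic median stayed under 1 throughout. Some of the 48 could not move, so their number is no measure of stability. Summing rows left every level as it was, since no member had several rows. Minimum counts, dropped classes and the background could not change the level of DNHD1. Dropping light chains or dynactin could not change the axonemal values, nor could the background change the class medians. Without division by length the axonemal median was 42.0 and the cytoplasmic median 824.9 mean normalised counts, a ratio of 0.0509. DNHD1 then stood at 1125, and 6 axonemal genes were above the median of all genes. With a minimum mean normalised count of 10, the axonemal median was 8.83 per kb, the ratio 0.0686, and 0 axonemal genes were above the median of the genes left. With a minimum of 100, the axonemal median was 14.4 per kb over 5 genes, the ratio 0.112, and 11 genes were above the median of those left, 0 axonemal and 11 cytoplasmic. Without dynactin 11 of 12 cytoplasmic names were above the median, a fall that comes from having fewer genes. With protein-coding genes as background 0 axonemal genes and 16 of 18 cytoplasmic names were above the median. No paired analysis was possible because the table held no values per library, and leaving out each replicate could not be run for the same reason. Precision per gene could not be given, since the mean count used carries neither reads per library nor a spread.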
